A study of Mus musculus with 6 samples.

Results

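The 9 genes described here, Atoh1, Pou4f3, Gfi1, Lhx3, Barhl1, Insm1, Ikzf2, Nhlh1 and Rfx3, encode transcription factors of inner ear hair cells. They were taken by symbol from the 39179 mouse genes in the count files, and each symbol matched 1 Ensembl gene. The samples were wild-type C57Bl/6J mice at P0, the day of birth, with males and females pooled and no treatment in either group. The cochlea group was the sensory epithelium of the hearing organ and the vestibule group that of the balance organs, and RNA-seq was run on 3 libraries of each. RNA of a tissue came from 20 ears, and the labels do not say whether the 3 libraries were made from separate pools. The p-values below thus measure the spread between these libraries, which may be technical. The paper describes both epithelia as dissected from 20 inner ears, so libraries of the tissues may share animals.

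A hair cell carries a bundle of stereocilia that turns motion into an electrical signal. Atoh1, a basic helix-loop-helix (bHLH) factor, starts the hair cell program in precursors of the sensory epithelium, and Pou4f3 and Gfi1 act after it to keep the new cells alive and committed. Later factors set hair cell types apart: Insm1 and Ikzf2 are known for their roles in outer hair cells of the cochlea. The comparison of the tissues asks which of these factors had a different mRNA level in newborn cochlear and vestibular epithelium, which both hold hair cells but different types of them.

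The libraries held 24464483 to 33664793 counts on genes, so that 1 CPM (a gene's count scaled to the total of its library) stood for 24.5 to 33.7 counts. Pairs of libraries of the same tissue differed by more than sampling noise, with a chi-square per degree of freedom of 31.0 to 111, and pairs from different tissues gave 169 to 338. All 24 hair cell markers examined passed the filter on low counts, which required 1 CPM in at least 3 libraries, and Myo7a, the myosin that marks hair cells, was at 40.1 to 120 CPM. Cochlea replicate 3 stood apart from the other cochlear libraries, with a summed level of 6 skeletal muscle markers of 238 CPM against 3.92 and 7.57, and of 12 neuron markers of 310 CPM against 718 and 638. Fold changes of the factors that rest on it are given with and without it. In whole tissue, fewer hair cells and less RNA per hair cell cannot be told apart.

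All 9 factors passed the filter, and 4 of them differed between the tissues at an FDR of 0.05 (edgeR quasi-likelihood test, Benjamini-Hochberg adjustment over 14723 genes). Gfi1, Lhx3 and Pou4f3 were higher in the vestibule and Insm1 was higher in the cochlea. The background is high in this comparison: 27.4% of all genes tested passed the same threshold, 15.8% with the higher level in the vestibule and 11.6% with the higher level in the cochlea. The CPM of the 2 tissues did not overlap for 5 factors, the 4 above and Nhlh1, where 41.8% of all genes tested did not overlap. The median log2 fold change of the factors was 0.18 (vestibule minus cochlea), beside 0.00 for all genes. Over 9 genes these counts are a description, and each factor is given below with its own values.

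**Figure D1:**
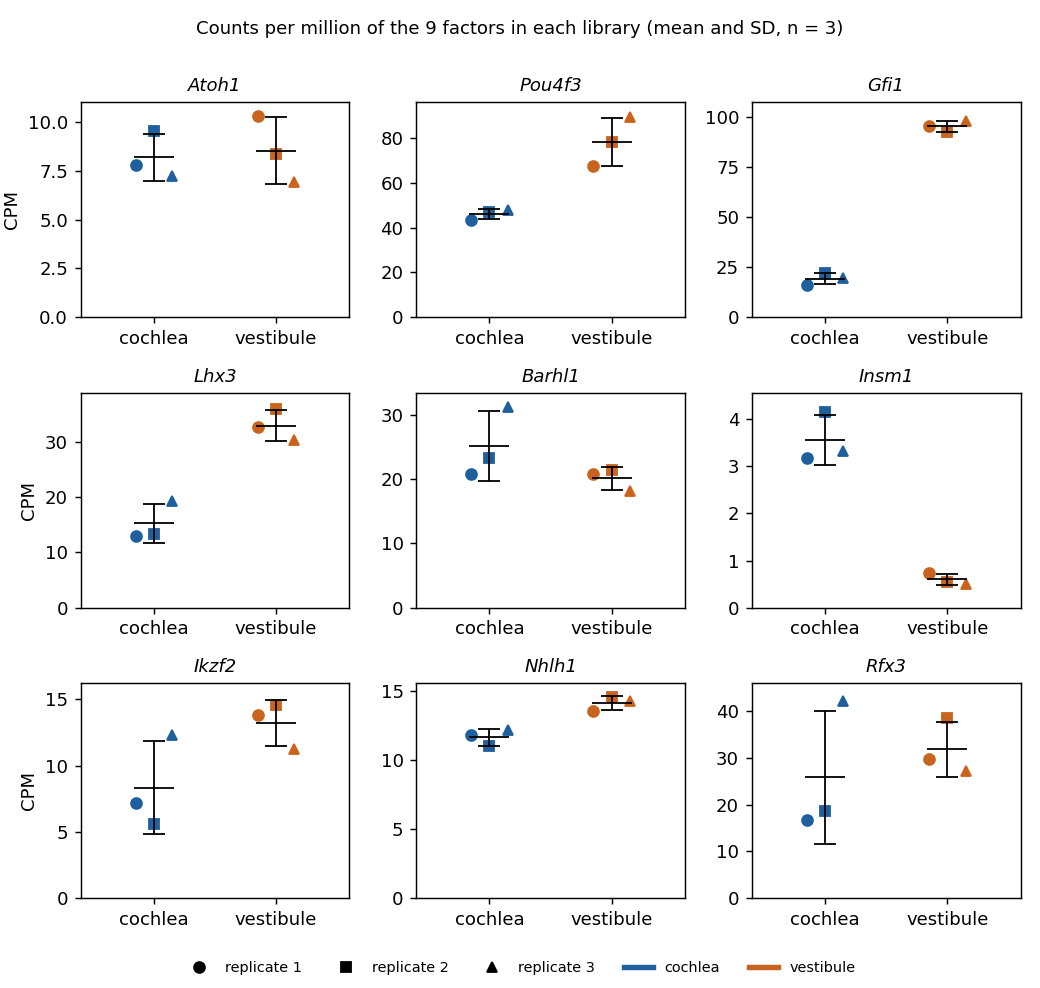
CPM of each of the 9 factors (vertical axes, each starting at 0) in the 3 cochlear and 3 vestibular libraries, with the marker shape giving the replicate number, long bars the mean and short bars 1 SD. Gfi1 at 92.7 to 98.4 CPM in the vestibule and Insm1 at 3.19 to 4.17 CPM in the cochlea stand farthest from the other tissue, and cochlea replicate 3 is the highest cochlear library for Ikzf2 and Rfx3.

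Sequences before the transcription start are given for 4 of the factors, because bHLH factors such as Atoh1 and Nhlh1 bind E-box letters and the 4 genes show the patterns met below: Gfi1 with the largest rise in the vestibule, Barhl1 with a difference toward the cochlea that missed the threshold, and Atoh1 and Nhlh1 with no call. They are the 250 bases before a RefSeq start (GRCm38.p6), 5′ to 3′ on the strand of the gene, without annotated exon bases. The 4 regions are chr6:64728875-64729124 (plus strand) for Atoh1, chr1:172057597-172057846 (minus) for Nhlh1, chr5:107724344-107724593 (minus) for Gfi1 and chr2:28916669-28916918 (minus) for Barhl1. The Gfi1 window precedes an internal start and lies inside the annotated span of the gene. Capitals mark matches to the E-box, CANNTG, which reads the same on both strands.
Atoh1: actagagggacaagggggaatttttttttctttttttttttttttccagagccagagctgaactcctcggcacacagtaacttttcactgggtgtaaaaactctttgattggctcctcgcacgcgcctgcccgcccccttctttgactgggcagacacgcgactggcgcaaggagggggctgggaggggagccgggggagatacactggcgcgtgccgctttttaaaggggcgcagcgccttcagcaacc
Nhlh1: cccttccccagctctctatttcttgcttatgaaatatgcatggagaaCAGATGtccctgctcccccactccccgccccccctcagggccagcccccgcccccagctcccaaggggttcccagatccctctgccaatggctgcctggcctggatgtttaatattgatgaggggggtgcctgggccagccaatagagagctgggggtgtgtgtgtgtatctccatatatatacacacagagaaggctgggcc
Gfi1: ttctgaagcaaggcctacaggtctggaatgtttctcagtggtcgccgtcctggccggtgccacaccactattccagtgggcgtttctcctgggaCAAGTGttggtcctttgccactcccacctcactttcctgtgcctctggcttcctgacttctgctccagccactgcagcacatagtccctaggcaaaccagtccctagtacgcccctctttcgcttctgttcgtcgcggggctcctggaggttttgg
Barhl1: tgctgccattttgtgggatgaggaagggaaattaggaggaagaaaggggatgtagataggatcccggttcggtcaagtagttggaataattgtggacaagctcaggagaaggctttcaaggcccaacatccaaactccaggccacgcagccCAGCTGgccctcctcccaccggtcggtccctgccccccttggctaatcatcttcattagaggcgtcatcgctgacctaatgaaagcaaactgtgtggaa
Nhlh1, Gfi1 and Barhl1 held 1 E-box each and Atoh1 held none, where 66.2% of all 32851 RefSeq windows of this length held at least 1. The letters TAATTA of homeodomain factors, GTTGCC of the RFX half-site and AAATCA of the GFI1 core were searched on both strands and were found in none of the 4 windows. Barhl1 has another RefSeq window, not printed, at chr2:28912496-28912745 (minus), which held 1 E-box and 1 AAATCA. Among all windows they occurred in 4.84%, 10.4% and 12.4%. No match overlapped another motif. The windows of Rfx3 (250 bases) and Lhx3 (126 bases), not printed, held none of the 4 motifs. The RefSeq table held windows for 6 of the 9 factors, and Pou4f3, Insm1 and Ikzf2 had no entry.

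The bHLH factors Atoh1 and Nhlh1 had nearly the same level in both tissues. Atoh1 (chromosome 6, 64729125 to 64731245, plus strand, GRCm38) was at 7.81, 9.55 and 7.25 CPM in the cochlea and at 10.3, 8.37 and 6.95 CPM in the vestibule, from 177 to 348 counts per library. The tissues overlapped, and the vestibule held both the highest and the lowest library. The log2 fold change was -0.07 ± 0.21 (SE, edgeR adjusted p = 0.836), and its sign turned when 1 of several settings changed: it was 0.062 with library size as the only scaling, 0.084 without cochlea replicate 2 and 0.043 without vestibule replicate 3. Nhlh1 (chromosome 1, 172052292 to 172057573, minus strand) is a neuronal bHLH factor that also marks young hair cells. Its levels were 11.8, 11.0 and 12.2 CPM in the cochlea and 13.6, 14.5 and 14.3 CPM in the vestibule. Every vestibular library was above every cochlear one and the spread within a tissue was among the smallest of the 9 factors, with coefficients of variation of 5.29% and 3.62%, yet the log2 fold change was 0.16 ± 0.15 (adjusted p = 0.456).

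Pou4f3, a POU homeodomain factor without which hair cells form but do not survive, had the highest mean level per length in both tissues, although Gfi1 overlapped it in the vestibule. It lies on chromosome 18 from 42394539 to 42397249 (plus strand). It stood at 43.5, 47.0 and 47.9 CPM in the cochlea and at 67.5, 78.1 and 89.3 CPM in the vestibule. The 3 vestibular libraries were all above the cochlear ones and were spread more widely, with a coefficient of variation of 13.9% against 5.04%. The difference was 0.65 ± 0.16 on the log2 scale (1.57-fold, adjusted p = 0.0152). The call depended on single libraries, since the adjusted p was 0.0588 without cochlea replicate 1 and 0.0513 without vestibule replicate 2.

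Lhx3, a LIM homeodomain factor, was 1.99-fold higher in the vestibule. It lies on chromosome 2 from 26200212 to 26208289 (minus strand). Its levels were 13.0, 13.4 and 19.3 CPM in the cochlea and 32.7, 35.8 and 30.2 CPM in the vestibule. The groups lay well apart, and cochlea replicate 3 was the nearest to the vestibule. On the log2 scale the difference was 0.99 ± 0.17 (adjusted p = 0.00292), and over all alternatives it stayed between 0.88 and 1.17 with adjusted p values of at most 0.0190. An antisense gene, Gm27196, overlaps Lhx3 and had 20 to 32 counts in the cochlea and 29 to 62 in the vestibule, against 319 to 563 and 770 to 1101 for Lhx3.

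Barhl1, a BarH-like homeodomain factor needed for the long-term survival of hair cells, had a difference of the opposite sign that did not pass. It lies on chromosome 2 from 28907679 to 28916668 (minus strand). Its levels were 20.8, 23.3 and 31.2 CPM in the cochlea and 20.8, 21.4 and 18.1 CPM in the vestibule. Cochlea replicate 3 was the highest and the other libraries overlapped. Its log2 fold change was -0.44 ± 0.17 with an unadjusted edgeR p of 0.0303 and an adjusted p of 0.0898, so it missed the threshold. Without cochlea replicate 1 it was -0.57 (adjusted p = 0.0478), and without cochlea replicate 3 it was -0.28. It passed a wider threshold (FDR 0.1, fold change 1.3), as did 14.5% of all genes tested with the higher level in the cochlea.

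Gfi1 had the largest rise in the vestibule of the 9 factors. It encodes a zinc finger repressor that acts after Pou4f3 in hair cells and is also known from blood cell development. The gene lies on chromosome 5 from 107716657 to 107726036 (minus strand). It was at 16.3, 21.9 and 19.4 CPM in the cochlea and at 95.5, 92.7 and 98.4 CPM in the vestibule. The vestibular libraries were close to each other, with a coefficient of variation of 2.98%, and the means were 19.2 ± 2.84 and 95.5 ± 2.85 CPM (SD, n = 3 each). The log2 fold change was 2.19 ± 0.16 (4.57-fold, adjusted p = 2.77e-05), and over all alternatives it lay between 2.07 and 2.33.

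Genes of other cells moved with Gfi1. Of 12 leukocyte markers, 5 passed the filter and all 5 were higher in the vestibule (median log2 fold change 1.85), with a summed level of 44.1 to 57.9 CPM in the cochlea and 170 to 199 CPM in the vestibule. The pan-leukocyte marker Ptprc was at 1.23 to 1.67 CPM and at 4.95 to 6.80 CPM. The granulocyte genes Mpo and Elane were at or under 0.118 CPM in every library. The macrophage receptor Csf1r, with 1.87 ± 0.11, Cd68, with 1.85 ± 0.18, and Ptprc, with 1.91 ± 0.24 on the log2 scale, had the largest changes of the list. What part leukocytes had in the Gfi1 level was not tested. A noncoding gene on the other strand, A430072P03Rik, overlaps Gfi1 and had 3 to 6 counts in the cochlea and 56 to 89 in the vestibule, small beside the 398 to 632 and 2380 to 3215 counts of Gfi1. The kit marked strand, but the strand setting of the counting is not given in the sources used here.

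Insm1, a zinc finger factor known for keeping outer hair cells from an inner hair cell fate, was the only factor called higher in the cochlea and the least abundant one in the vestibule. It lies on chromosome 2 from 146221921 to 146225020 (plus strand). It had 78, 120 and 97 counts in the cochlear libraries and 25, 14 and 13 in the vestibular ones, or 3.19, 4.17 and 3.32 CPM and 0.743, 0.545 and 0.510 CPM. The groups were far apart relative to their spread. The log2 fold change was -2.68 ± 0.27, 6.40-fold higher in the cochlea (adjusted p = 0.000159). It reached 1 CPM only in the 3 cochlear libraries, so that it entered the test through its cochlear level alone. With no filter on low counts the value was -2.70. Without cochlea replicate 3, and with the filter lowered to 2 libraries, which was chosen after seeing the data, it was -2.75 (adjusted p = 0.000312).

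Of 11 neuron markers tested, 6 were higher in the cochlea, none was called higher in the vestibule and 5 were not called, with a median log2 fold change of -1.52 and summed levels of 310 to 718 CPM against 191 to 410 CPM. The neuronal tubulin Tubb3, with -2.54 ± 0.67, the RNA-binding protein gene Elavl4, with -2.53 ± 0.48, and Stmn2, with -2.39 ± 0.76, had the largest changes among those called. Of those not called, Ntrk3 had 0.62 ± 0.22, with every vestibular library above every cochlear one, and Nefm had -0.04 ± 0.42. Neurod1, which neuroblasts of the ear express, was at or under 0.286 CPM in all libraries. Cochlea replicate 3 had 310 CPM of neuron markers, fewer than the 410 CPM of vestibule replicate 1, and its Insm1 level was 3.32 CPM against 0.743. The order of these neuron sums rests on Nefm, which was at 52.9 CPM in cochlea replicate 3 and 171 CPM in vestibule replicate 1. Within the cochlea, the neuron sum was 718, 638 and 310 CPM and Insm1 lay between 3.19 and 4.17 CPM. What part neurons had in the Insm1 level was not tested.

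Ikzf2 encodes Helios, a zinc finger factor known from mature outer hair cells and from T cells. The gene spans chromosome 1 from 69531214 to 69687245 (minus strand). Its levels were 7.15, 5.59 and 12.3 CPM in the cochlea and 13.8, 14.6 and 11.3 CPM in the vestibule. Cochlea replicate 3 lay among the vestibular libraries. With it the log2 fold change was 0.55 ± 0.27 (adjusted p = 0.168) and without it 0.92 ± 0.20 (adjusted p = 0.0101). The T cell markers Cd3e and Cd3g were under the filter. Cd3e was at 0.245, 0.278 and 0.650 CPM in the cochlea and 0.861, 0.701 and 0.707 CPM in the vestibule, and Cd3g at or under 0.164 CPM. What part T cells had in the Ikzf2 level was not tested.

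Rfx3, a winged-helix factor of ciliated cells that acts with other RFX factors in hair cells, had the widest spread of the 9 in the cochlea. The gene spans chromosome 19 from 27761721 to 28011166 (minus strand). It was at 16.7, 18.6 and 42.3 CPM in the cochlea, a coefficient of variation of 55.2%, and at 29.8, 38.5 and 27.3 CPM in the vestibule. Cochlea replicate 3 was the highest of all 6 libraries. With all libraries the log2 fold change was 0.18 ± 0.32 (adjusted p = 0.712), and it was 0.71 ± 0.19 (adjusted p = 0.0231) without cochlea replicate 3 and -0.06 without cochlea replicate 1.

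Both Ikzf2 and Rfx3 were thus high in cochlea replicate 3. Its CPM was 1.93 times the mean of the other 2 cochlear libraries for Ikzf2 and 2.40 times for Rfx3, and 4.22% and 1.95% of all genes tested had a ratio at least as high. The ratio was 1.46 for Lhx3, 1.42 for Barhl1 and between 0.836 and 1.07 for the other 5 factors. Ikzf2 and Rfx3 are also the longest, with lengths implied by the RPKM values of 9.39 and 11.0 kb where the other 7 lie between 2.08 and 3.90 kb. Among all genes, the 1632 of at least 8 kb had a median ratio of 1.25 and all 14722 genes with a length 1.03, and Spearman's rho of ratio and length across genes was 0.31, a description from the same libraries. What part length, muscle or neuron content had in the levels of Ikzf2 and Rfx3 in this library was not tested.

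**Figure D2:**
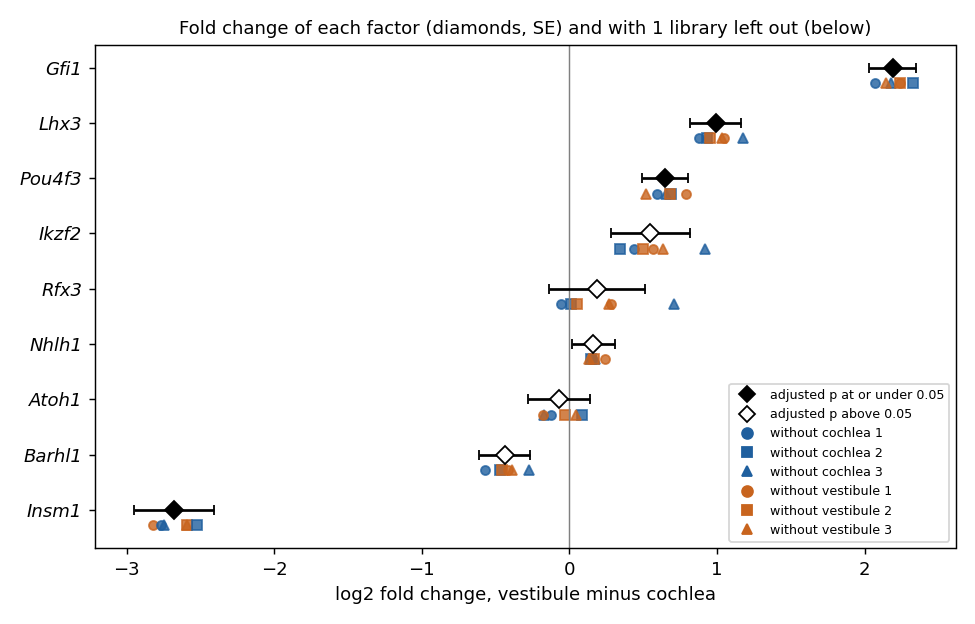
Log2 fold change of each factor, vestibule minus cochlea (horizontal axis), with the estimate from all 6 libraries as a diamond, its SE as a bar and the estimates with 1 library left out as small markers below it. Only Atoh1 and Rfx3 cross 0 with 1 library left out. Ikzf2 and Rfx3 move to 0.92 and 0.71 without cochlea replicate 3, and Insm1 without a cochlear library was fitted with a filter of 2 libraries.

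Because all 9 factors act in hair cells, each was set against the summed counts of 24 hair cell markers in its own library. That sum was itself higher in the vestibule, at 1479 to 1956 CPM against 1019 to 1153 CPM. Of the 24 markers, 12 were higher in the vestibule and 3 in the cochlea (median log2 fold change 0.58). Pvalb, a calcium buffer, had -2.39 ± 0.40, Ush1c, the bundle scaffold harmonin, had 2.37 ± 0.23, and the calcium buffer Calb2 and the synaptic gene Otof had -2.08 ± 0.34 and 2.08 ± 0.29. Within the cochlea Pvalb was at 88.9, 72.6 and 30.4 CPM and Calb2 at 115, 92.8 and 41.7 CPM, beside a neuron marker sum of 718, 638 and 310 CPM, and what part neurons had in these markers, and so in the ratios, was not tested.

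On this scale the tissues did not overlap for Gfi1, Insm1 and Lhx3, as before. Pou4f3 overlapped, while the ratios of Barhl1 and Atoh1 were higher in all cochlear libraries. On the same scale 59.5% of all genes tested did not overlap, so that 5 of 9 factors is no more than the background. Per 1000 marker counts, Gfi1 had 16.0, 19.1 and 16.9 in the cochlea against 48.8, 59.0 and 66.5 in the vestibule. Insm1 had 3.13, 3.63 and 2.88 against 0.380, 0.347 and 0.345. The tissues were thus separated by 1.74 for Gfi1 and by -3.16 for Insm1 on the log2 scale. Barhl1 had 20.4, 20.3 and 27.0 in the cochlea against 10.6, 13.6 and 12.2 in the vestibule, a difference of -0.89. Atoh1 had 7.66, 8.33 and 6.29 against 5.28, 5.33 and 4.70, a difference of -0.53. For both, every cochlear library lay above every vestibular one. Lhx3 had 12.8, 11.7 and 16.7 against 16.7, 22.8 and 20.4, and its highest cochlear and lowest vestibular libraries nearly touched. For each of these 5 factors the exact two-sided permutation test gave p = 0.1, the smallest that 3 libraries against 3 allow, so no ratio can pass 0.05. Pou4f3 had 42.7, 41.0 and 41.5 against 34.5, 49.7 and 60.3 and overlapped (exact permutation p = 0.6). The ratios of Ikzf2, Nhlh1 and Rfx3 also overlapped, with exact permutation p values of 0.7, 0.2 and 0.8. Without cochlea replicate 3 the log2 difference went from 0.15 to 0.44 for Ikzf2, from -0.17 to 0.22 for Rfx3, from 0.55 to 0.70 for Lhx3 and from -0.89 to -0.75 for Barhl1. Without cochlea replicate 2 the difference of Ikzf2 was -0.12. With any 1 library left out it ranged from -0.012 to 0.39 for Pou4f3, from -0.12 to 0.44 for Ikzf2 and from -0.37 to 0.22 for Rfx3, so that none of the 3 had a stable direction.

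The ratios depended on the markers chosen, and 49.3% of all genes tested did not overlap per count of Myo6 and 31.2% per count of Myo7a. Myo6, a myosin gene of the list with many counts in both tissues, was at 361 to 458 CPM in the cochlea and 326 to 360 CPM in the vestibule. Its log2 fold change was -0.35 ± 0.13, not called, and dividing by it shifts every factor toward the vestibule. Per count of Myo6 alone, Pou4f3 was at 0.121, 0.124 and 0.105 in the cochlea against 0.188, 0.233 and 0.274 in the vestibule and did not overlap. Atoh1 and Barhl1 overlapped on that scale, with means of 0.0209 against 0.0250 for Atoh1 and 0.0624 against 0.0590 for Barhl1. Gfi1, Lhx3, Ikzf2 and Nhlh1 were higher in all vestibular libraries per Myo6 count, Insm1 was higher in all cochlear ones and Rfx3 overlapped. Myo7a itself varied within a tissue, at 40.1, 56.5 and 87.5 CPM in the cochlea and 120, 104 and 73.7 CPM in the vestibule, and its ratios carry that spread. Per count of Myo7a, Gfi1 was higher in all vestibular libraries and Barhl1 and Insm1 in all cochlear ones. The other 6 factors overlapped there, among them Lhx3 with 0.325, 0.237 and 0.220 against 0.272, 0.345 and 0.410.

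**Figure D3:**
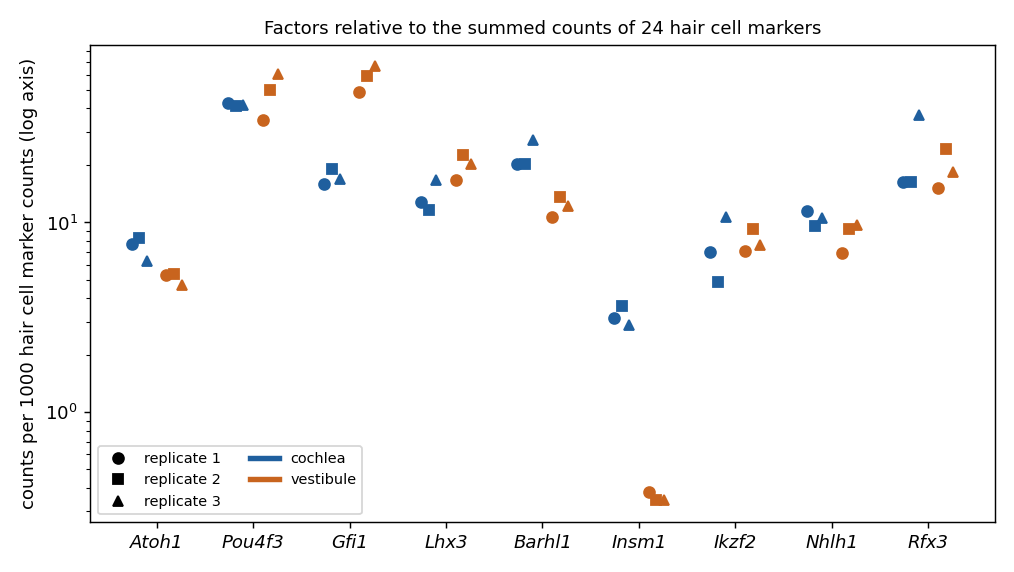
Counts of each factor per 1000 summed counts of 24 hair cell markers in the same library (vertical log axis), by tissue and replicate. Gfi1 and Lhx3 lie higher in all vestibular libraries, Insm1, Barhl1 and Atoh1 in all cochlear libraries, and the other 4 factors overlap.

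Ratios between the counts of 2 factors in the same library need no library size. Gfi1 had 0.374, 0.466 and 0.406 counts per Pou4f3 count in the cochlea, against 1.41, 1.19 and 1.10 in the vestibule. Per Atoh1 count it had 2.08, 2.30 and 2.68 against 9.24, 11.1 and 14.2. Both ratios were higher in every vestibular library than in any cochlear one, and as counts of genes of different length they do not say which factor was more abundant. Insm1 had 0.408, 0.436 and 0.458 counts per Atoh1 count in the cochlea, against 0.0718, 0.0651 and 0.0734 in the vestibule, the tightest ratio within a tissue among those with Atoh1. Barhl1 per Pou4f3 was 0.477, 0.494 and 0.651 against 0.308, 0.274 and 0.203, with no overlap. Barhl1 per Atoh1, with 2.66, 2.44 and 4.30 against 2.01, 2.55 and 2.60, overlapped, as did Lhx3 per Pou4f3. Nhlh1 and Insm1 per Pou4f3 also did not overlap and were higher in the cochlea, and Lhx3 per Atoh1 did not overlap and was higher in the vestibule. These are descriptions of the same counts as above. The share of all genes without overlap on these scales was not computed.

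Levels of different factors were compared per length, from the deposited log2 RPKM. In the cochlea Pou4f3 led with a mean of 19.6 ± 0.989 RPKM (SD, n = 3), above all 8 others in every library. Barhl1 followed at 6.43 ± 1.39, Gfi1 at 5.93 ± 0.877, Lhx3 at 5.01 ± 1.15, Nhlh1 at 4.74 ± 0.251, Atoh1 at 3.94 ± 0.573 and Rfx3 at 2.35 ± 1.3, and no neighbors in this run differed beyond their spread. Insm1 at 1.15 ± 0.172 and Ikzf2 at 0.888 ± 0.373 were lowest and overlapped each other. Only 2 of the 8 pairs of neighbors were apart, Pou4f3 from Barhl1 and Rfx3 from Insm1, and 6 were apart without cochlea replicate 3. That library also set the spread of Rfx3 and Ikzf2, whose mean log2 RPKM went from 1.10 to 0.68 and from -0.25 to -0.57 without it.

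In the vestibule 5 of the 8 pairs of neighbors were apart. Pou4f3 at 33.2 ± 4.61 RPKM and Gfi1 at 29.5 ± 0.875 led together and overlapped. Lhx3 followed at 10.8 ± 0.924, apart from Gfi1 above it and from Nhlh1 at 5.74 ± 0.207 below it. Barhl1 at 5.16 ± 0.450, Atoh1 at 4.11 ± 0.817 and Rfx3 at 2.89 ± 0.534 formed a run without gaps, and Ikzf2 at 1.41 ± 0.185 and Insm1 at 0.197 ± 0.0406 stood apart below. Among all genes in the matrix, Gfi1 moved from percentile 49.7 in the cochlea to 86.9 in the vestibule, Pou4f3 from 80.2 to 88.5 and Insm1 from 17.2 to 1.13. Ikzf2 stayed low, at percentiles 13.4 and 16.4.

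**Figure D4:**
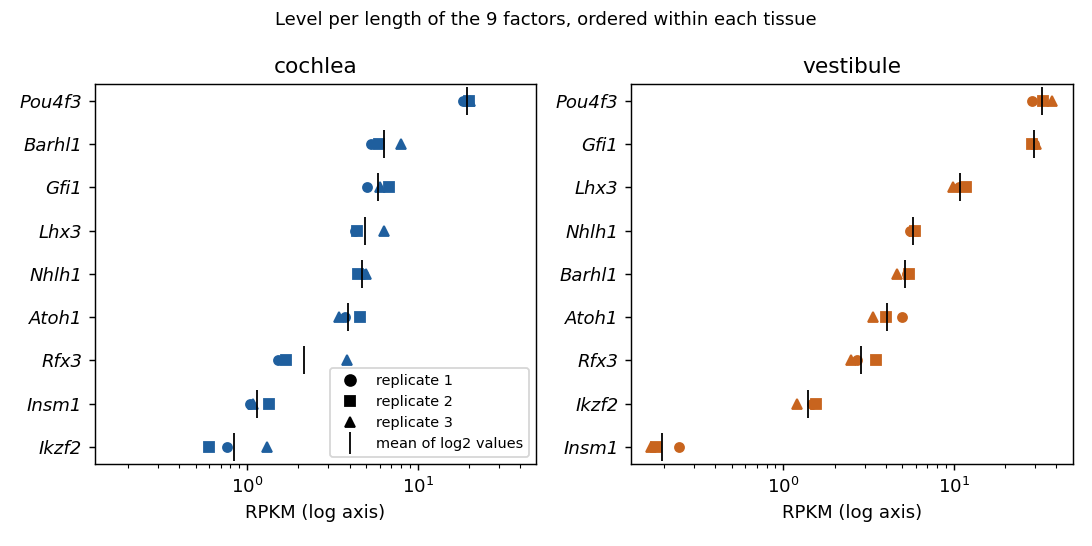
RPKM of the 9 factors (horizontal log axes), ordered by the mean of log2 RPKM in the cochlea (left) and the vestibule (right), with 1 marker per library. Pou4f3 has the highest mean in both tissues, Gfi1 has rank 3 in the cochlea and rank 2 in the vestibule, and the cochlear values of Rfx3 and Ikzf2 are the most spread.

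Of 21 close relatives of the factors, 11 were under the filter and 10 passed it, of which 2 were higher in the vestibule and 1 in the cochlea, with a median log2 fold change of 0.05. Pou4f2, a POU factor of sensory neurons, was at 7.73, 5.49 and 2.22 CPM in the cochlea and at 0.564, 0.117 and 0.157 CPM in the vestibule (log2 fold change -4.23 ± 0.62, adjusted p = 0.00120). Ikzf1, the lymphoid relative of Ikzf2, had 1.19 ± 0.20 (adjusted p = 0.00263) and Rfx2 had 0.85 ± 0.27 (adjusted p = 0.0471). Pou4f2 reached 1 CPM only in the cochlear libraries and so, like Insm1, entered the test through them alone. What part neurons had in the Pou4f2 level, and leukocytes in that of Ikzf1, was not tested. Among the paralogs that passed were Rfx7, at 54.3 to 66.2 CPM in the cochlea and 44.6 to 61.9 CPM in the vestibule, and Ikzf5, at 26.4 to 28.3 and 28.2 to 31.0 CPM, and neither was called. Gfi1b, Lhx4 and Insm2, the nearest relatives of Gfi1, Lhx3 and Insm1, were under the filter, at or under 0.118, 0.743 and 0.368 CPM.

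Upstream of Atoh1, 4 of 7 inducers and E-protein partners were higher in the cochlea and 1 in the vestibule (median log2 fold change -0.60), while Atoh1 itself showed -0.07. Gata3, a zinc finger factor of the prosensory region, was at 132 to 189 CPM in the cochlea and at 9.89 to 11.9 CPM in the vestibule (log2 fold change -4.06 ± 0.19, adjusted p = 5.21e-06). The coactivator gene Eya1 was at 256 to 296 CPM against 144 to 154 CPM (adjusted p = 0.000484), and Sox2, the factor of sensory progenitors, had -0.60 ± 0.16. Tcf4, an E protein that pairs with bHLH factors, rose in the vestibule by 0.87 ± 0.13, and the E proteins Tcf3 and Tcf12 had 0.03 ± 0.13 and -0.11 ± 0.16 and were not called.

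Genes that oppose Atoh1 were mostly higher in the cochlea, with 7 of 10 tested there and 2 in the vestibule (median -0.82). The Notch target Hes5, which is expressed in supporting cells, was at 3.78 to 6.47 CPM against 0.393 to 0.662 CPM (log2 fold change -3.43 ± 0.32, adjusted p = 0.000109). Id2, which sequesters E proteins, had -1.53 ± 0.20 and the repressor Hey1 -0.89 ± 0.16. The members higher in the vestibule were Id4, with 0.67 ± 0.15, and Heyl, with 0.61 ± 0.14. Hes1 had 0.00 ± 0.18, and Neurog1 was at 0 counts in all 6 libraries, which allows up to 0.123 CPM in the shallowest (3 counts, counting error only). Supporting cell markers as a whole were higher in the cochlea for 7 of 12 and in the vestibule for 2 (median -0.74), led by the receptor Fgfr3 at -4.29 ± 0.23, Hes5 and the connexin gene Gjb2 at -2.14 ± 0.16. Their summed level was 2781 to 3630 CPM in the cochlea and 3309 to 3872 CPM in the vestibule.

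Of 7 cofactors that Lhx3, Gfi1 and Insm1 work through, only Ldb2, a LIM domain-binding protein, was called, higher in the cochlea with -1.06 ± 0.14. Its relative Ldb1, the partner of LIM homeodomain factors, had 0.55 ± 0.25 and was not called (adjusted p = 0.140). The partners of the repressor domain shared by Gfi1 and Insm1 were not called either: Kdm1a had -0.01 ± 0.13, Rcor1 0.12 ± 0.13, Rcor2 0.54 ± 0.21, Hdac1 -0.01 ± 0.12 and Hdac2 -0.32 ± 0.13. The median of the list was -0.01.

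Of 8 genes downstream of Atoh1 or Pou4f3, 2 were higher in the vestibule and 3 in the cochlea (median 0.15). Dll1, the Notch ligand that new hair cells show their neighbors, was at 2.94 to 4.41 CPM in the cochlea and at 12.9 to 17.5 CPM in the vestibule (log2 fold change 1.93 ± 0.21, adjusted p = 0.000212). The nuclear receptor gene Nr2f2 had -1.51 ± 0.15 and Rasd2 -0.82 ± 0.18. Among 7 ciliary genes that RFX factors and Foxj1 govern, 3 were higher in the vestibule and none in the cochlea (median 0.36). They were the axonemal dynein genes Dnah11, with 4.94 ± 0.43, and Dnah9, with 3.96 ± 0.37, and Foxj1, the regulator of motile cilia, with 1.59 ± 0.14. Dync2li1, Ift88, Ift172 and Bbs4, which serve all cilia, had 0.20 ± 0.16, 0.25 ± 0.14, 0.26 ± 0.25 and 0.36 ± 0.17 and were not called, as Rfx3 was not.

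Genes that mark the hair cell types of the cochlea were split between the tissues. Of 6 outer hair cell genes, 2 were higher in each tissue. The motor protein gene Slc26a5 was at 1.55, 1.67 and 3.32 CPM in the cochlea and at or under 0.149 CPM in the vestibule (log2 fold change -4.79 ± 0.61), and Chrna9 had -0.50 ± 0.16. Ocm, a calcium buffer known from outer hair cells and from vestibular hair cells, was at 0.327 to 0.547 CPM against 25.0 to 36.3 CPM (6.00 ± 0.29), Tmod1 had 0.52 ± 0.13, and Chrna10 had 0.55 ± 0.21 and was not called. Insm1 and Slc26a5 were thus both higher in the cochlea. Of 4 inner hair cell genes tested, 3 were higher in the vestibule (median 1.42): the glutamate transporter gene Slc17a8 with 3.68 ± 0.19, Otof with 2.08 ± 0.29 and Tbx2 with 0.76 ± 0.18. Fgf8 had 0.21 ± 0.25 and was not called, and Cabp2 was at 0 counts in all libraries.

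Among the listed genes called, Hes5 and Slc26a5 likewise reached 1 CPM only in cochlear libraries, and Dnah11 and Ocm only in vestibular ones, so that each entered the test through the tissue where it was high.

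Other tissue also differed between the groups. Of 6 Schwann cell markers, 3 were higher in the vestibule and none in the cochlea, among them Pmp22 and Mbp with 1.45 ± 0.26 and 1.16 ± 0.25, while Sox10 and Erbb3 had 0.34 ± 0.16 and -0.16 ± 0.18 and were not called. Their summed level was 726 to 879 CPM in the cochlea and 1278 to 1633 CPM in the vestibule. Of 8 mesenchyme and cartilage markers, 3 were higher in the vestibule and 2 in the cochlea, with Matn1 at -4.60 ± 0.17, Acan at 3.52 ± 0.25 and Col1a1 at 1.55 ± 0.17. Of 6 muscle markers, Acta1, Mylpf and Tnnt3 passed the filter and none was called, with -3.25 ± 1.40, -2.53 ± 1.18 and -2.35 ± 1.22. Ckm and Myh3 were under the filter and Tnnc2 was at 0. All 3 that passed were highest in cochlea replicate 3, where Acta1 reached 147 CPM. These fold changes rest on that library: in the other 2 cochlear libraries Acta1 was at 1.84 and 4.62 CPM and Mylpf at 1.10 and 2.08 CPM, against 2.67 to 11.2 and 1.87 to 4.28 CPM in the vestibule.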

How the data were processed

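The authors aligned the reads to GRCm38 and counted read pairs per Ensembl gene. The submitters' processing notes name TopHat2 2.1.0, SAMtools 0.1.18, HTSeq 0.5.4p5 and edgeR 3.4.2. The deposited counts are whole numbers without normalization, and the summary lines that name no gene, 18.5% to 20.6% of listed counts, were left out. The authors also deposited a matrix of log2 RPKM, scaled by library size, used here for levels per length only.

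Libraries were grouped by tissue label. A gene was tested where 3 or more libraries reached 1 CPM. The test was the quasi-likelihood F test of edgeR 4.0.16 (R 4.3.3) on TMM-scaled counts, with p-values adjusted by Benjamini-Hochberg and called at an FDR of 0.05. CPM values use library size alone, fold changes TMM factors. SE is the log2 fold change over the square root of F. DESeq2 1.42.0, limma-voom 3.58.1 and other settings, 32 alternatives in all, were tried, and the edgeR script was tested on simulated data. Named were the 9 factors, the 3 largest called changes of each list, all members of lists of 7 or fewer, and the gene most like each factor over the 6 libraries. The single values of 4 listed genes are not reported here. Other genes were named after their values were seen. Factors and lists were chosen with earlier results of these data known. Gene coordinates are from GENCODE vM21, and promoter sequences from RefSeq. Figures used matplotlib 3.10.9.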

Additional observations from a re-analysis of the deposited data

How the results depend on the processing

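The calls on Gfi1, Lhx3 and Insm1 kept their direction and their side of the threshold in every alternative that gave a value. Insm1 gave none under the main filter without any 1 cochlear library, and between -2.77 and -2.52 with a filter of 2 libraries, chosen after seeing the data. Leaving out 1 library at a time gave 2 to 5 factors higher in the vestibule, with 5 without cochlea replicate 3, and 0 to 1 in the cochlea. Without a cochlear library the filter kept Insm1 out of the test, and the factor called without cochlea replicate 1 was Barhl1. Over all genes the same gave 1342 to 2694 calls higher in the vestibule and 925 to 1863 in the cochlea, with both lowest counts without vestibule replicate 2. Over the other listed genes it gave 30 to 43 and 20 to 31, beside 39 and 33 with all libraries. The log2 fold change of Atoh1 was 0.062 with library size alone and from -0.18 to 0.084 with 1 library left out, and that of Rfx3 from -0.060 to 0.71. The wider threshold (FDR 0.1, fold change 1.3) gave 2 factors higher in the cochlea, Insm1 and Barhl1, beside 2137 of all genes (14.5%), and 3 factors higher in the vestibule, beside 2804 of all genes. Library size alone moved the median of all genes to 0.13 and the share of calls that were higher in the vestibule from 57.6% to 68.8%. With a replicate block, 1609 genes were higher in the vestibule and 1009 in the cochlea, and 3 factors were called higher in the vestibule and 1 factor was higher in the cochlea. Replicate numbers were not treated as pairs in the main fit. Deviations of same-numbered libraries from their tissue mean had correlations of -0.19, -0.28 and -0.49. With 3 libraries per tissue these values cannot show whether libraries share animals. Levels relative to hair cell markers did not overlap for 5 to 6 factors over the alternatives for the summed or averaged markers, where 59.5% of all genes did not overlap relative to the summed markers. Relative to a single marker, which factors did so differed: 6 per Myo6, without Atoh1 and Barhl1, and 3 per Myo7a, which were Gfi1, Barhl1 and Insm1. Neighbors apart in level per length were 2 to 6 in the cochlea and 5 to 7 in the vestibule. The causes were not tested. Depth limits Insm1 in the vestibule, at 13 to 25 counts.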

Other observations

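For each factor the gene most alike in log2 CPM over the 6 libraries was looked up, as a description with no test, since 6 libraries of 2 tissues give many genes a high correlation. For Gfi1 it was Ssc4d (r = 0.9999), a scavenger receptor gene at 17.7, 27.6 and 23.5 CPM in the cochlea and 228, 219 and 245 CPM in the vestibule, and 1020 genes had r above 0.95. For Insm1 it was Zfp518b (r = 0.9995, 716 genes above 0.95), which was at 58.5, 62.9 and 60.0 CPM in the cochlea and 41.1, 36.5 and 34.4 CPM in the vestibule, a far smaller difference than that of Insm1. For Lhx3 it was Glis1 (r = 0.999, 591 genes) and for Pou4f3 the ubiquitin ligase gene Rnf217 (r = 0.997, 206 genes).

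The factors without a tissue call had fewer such genes. For Ikzf2 it was the endolysosomal channel gene Tpcn2 (r = 0.997, 152 genes), for Rfx3 Rnpepl1 (r = 0.997, 41 genes), for Barhl1 Ints9 (r = 0.994, 63 genes) and for Nhlh1 Ifitm3 (r = 0.993, 57 genes). Tpcn2 shared the high value of Ikzf2 in cochlea replicate 3, at 12.8 CPM against 7.32 and 5.35 CPM, and Rnpepl1 that of Rfx3, at 99.3 CPM against 69.5 and 70.7 CPM. For Atoh1 it was Exo1, a DNA repair exonuclease gene (r = 0.990), and 16 genes had r above 0.95, the fewest of the 9 factors.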
